A study of Mus musculus with 10 samples.

Results

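The genes described here are 10 genes of the osteoclast, the multinucleated cell that resorbs bone, as measured in RNA from mouse osteocyte preparations. They were chosen by symbol as Acp5, Ctsk, Calcr, Oscar, Ocstamp, Dcstamp, Atp6v0d2, Tcirg1, Clcn7 and Nfatc1, and make up 10 of the 22548 genes in the count table. The study compared osteocytes from mice bearing the murine myeloma line Vk12598 (MM, n = 5, mice 6 to 10) with osteocytes from control mice (No MM, n = 5, mice 1 to 5), with 1 RNA-seq library per mouse. All 10 mice were labelled as male C57BL/6 mice at 8 weeks, with no genetic change. Myeloma cells were injected into the femur of the MM mice, and the study's methods name an injection of PBS for controls. Osteocytes were the cells released from cleaned bone pieces by repeated collagenase and EDTA digestion, a procedure with no sorting step, so other cells attached to bone can enter the preparation. The myeloma model is 1 cell line in 1 mouse strain, and p-values measure the spread between these mice.

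Between 31099174 and 39466332 reads were counted per library, and 3 counts corresponded to 0.0709 to 0.114 CPM, the count scaled to a fixed library size. CPM values use TMM scaling, and differences are log2 fold changes of MM over No MM from edgeR's quasi-likelihood test with Benjamini-Hochberg adjustment over 16186 tested genes. No MM 3 and No MM 4 stood apart, with immunoglobulin genes taking 26.6% and 29.0% of their counts against 0.637% to 3.86% in the other 8 libraries. Each comparison was therefore also made without them.

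Osteoclasts form by fusion of precursors of the macrophage lineage under the cytokines M-CSF and RANKL. RANKL signals to the transcription factor NFATc1, which turns on genes for cell fusion, acid secretion and digestion of the bone matrix. The mature cell seals off a patch of bone surface, pumps protons and chloride into the space beneath it to dissolve mineral, and releases cathepsin K to cut collagen. Osteocytes sit inside the mineralized matrix and can also remodel the matrix around them with some of the same enzymes, so transcripts such as Acp5 and Ctsk are not unique to osteoclasts. The osteocyte markers were present, since all 6 (Sost, Dmp1, Mepe, Phex, Pdpn and Fgf23) had at least 24 counts in every library. On the per-length scale, Ctsk and Acp5 were above each of these 6 markers in all 10 libraries. Dmp1, a matrix protein of osteocytes, ranged from 40.5 to 320 CPM per kilobase, whereas Ctsk ranged from 135 to 2452 CPM per kilobase. In such bulk samples, fewer cells of a type and less RNA per cell cannot be told apart.

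All 10 genes passed the filter on low counts and together took 0.0599% to 0.922% of the counts of a library. On the per-length scale, Acp5 had the highest median level, 1355 CPM per kilobase, followed by Ctsk at 932. A wide gap separated these from Tcirg1 at 67.4 and Atp6v0d2 at 52.2 CPM per kilobase. Clcn7, Nfatc1, Oscar and Dcstamp came next, with medians of 19.0, 18.1, 13.4 and 12.2 CPM per kilobase. Ocstamp had a median of 4.84 and Calcr one of 0.692 CPM per kilobase. Among all genes of the table, the per-length rank of Acp5 lay between 14 and 216 and that of Ctsk between 21 and 453. The ranges over libraries overlapped between all neighbours in this order except Ctsk, whose lowest library was at 135 CPM per kilobase, and Tcirg1, whose highest was at 93.4.

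The secreted enzymes were the most abundant of the genes. Acp5 encodes tartrate-resistant acid phosphatase, the enzyme stained to identify osteoclasts. Its level was 6341, 1943, 477, 387 and 3069 CPM in No MM 1 to 5 and 3725, 1918, 1071, 950.4 and 1896 CPM in MM 6 to 10. No MM 1 was the highest library and No MM 3 and No MM 4 were the lowest, so the MM range lay inside the No MM range. The controls averaged 2444 ± 2446 CPM and the MM mice 1912 ± 1109 CPM (SD, n = 5 each), a log2 fold change of -0.35 (SE 0.72) with an adjusted p of 0.844 (edgeR). Acp5 spans 9:22126731-22135746 on the minus strand in the table's coordinates. An antisense gene, 6530413G14Rik, shares 137 exon bases with it in GENCODE M21 and is not in the count table, so reads of the pair cannot be told apart if the counting ignored strand.

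Ctsk encodes cathepsin K, the protease that degrades bone collagen, and lies at 3:95499286-95509362 on the plus strand. Its level was 3634, 1424, 275, 200 and 3215 CPM in No MM 1 to 5 and 2695, 1337, 616, 869 and 1821 CPM in MM 6 to 10. The controls again held both ends of the range, with No MM 1 and No MM 5 at the top and No MM 3 and No MM 4 at the bottom. This gave a log2 fold change of -0.25 (SE 0.76), with an adjusted p of 0.898 (edgeR). Without No MM 3 and No MM 4, the log2 fold change was -1.01 (SE 0.53) for Acp5 and -0.93 (SE 0.51) for Ctsk, both with an adjusted p of 0.643 (edgeR).

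Sequences upstream of 4 of the genes are shown because 3 of them, Ctsk, Acp5 and Oscar, moved together across libraries over a wide range, while Tcirg1 kept to a narrow one. Each is the 250 bases before the RefSeq start site in GRCm38.p6, read 5′ to 3′ on the gene's own strand, and capitals mark matches on either strand to the core motifs of the osteoclast factors NFAT (GGAAA), PU.1 (GAGGAA), AP-1 (TGANTCA) and MITF (CATGTG), which do not overlap in these windows.
Ctsk, chr3:95498960-95499209, plus strand: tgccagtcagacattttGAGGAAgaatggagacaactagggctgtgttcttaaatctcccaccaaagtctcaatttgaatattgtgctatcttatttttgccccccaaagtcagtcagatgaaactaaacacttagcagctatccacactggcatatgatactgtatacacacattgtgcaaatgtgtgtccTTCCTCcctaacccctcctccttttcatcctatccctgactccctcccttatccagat
Acp5, chr9:22135747-22135996, minus strand: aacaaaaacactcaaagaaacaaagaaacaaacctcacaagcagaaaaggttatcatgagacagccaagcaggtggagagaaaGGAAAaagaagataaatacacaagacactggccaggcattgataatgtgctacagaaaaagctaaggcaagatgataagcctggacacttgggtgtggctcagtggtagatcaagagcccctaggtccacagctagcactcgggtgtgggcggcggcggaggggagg
Oscar, chr7:3616158-3616407, minus strand: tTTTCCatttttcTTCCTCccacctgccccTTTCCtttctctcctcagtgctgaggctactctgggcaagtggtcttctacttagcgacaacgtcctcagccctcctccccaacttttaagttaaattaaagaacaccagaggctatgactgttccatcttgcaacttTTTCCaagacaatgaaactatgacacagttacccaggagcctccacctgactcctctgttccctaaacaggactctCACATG
Tcirg1, chr19:3907134-3907383, minus strand: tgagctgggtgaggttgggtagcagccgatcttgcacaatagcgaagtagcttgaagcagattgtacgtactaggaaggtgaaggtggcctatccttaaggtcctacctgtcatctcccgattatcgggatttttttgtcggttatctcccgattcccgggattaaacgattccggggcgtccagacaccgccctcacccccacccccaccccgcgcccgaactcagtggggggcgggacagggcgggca
The Ctsk window held 2 matches, both to the PU.1 motif, and that of Acp5 held 1 match to the NFAT core. In the Oscar window there were 5 matches, 3 to the NFAT core, 1 to PU.1 and 1 to MITF. The Tcirg1 window held none of the 4 motifs. RefSeq lists 3 start sites each for Acp5 and Tcirg1 and 2 each for Calcr and Clcn7. Only 1 window per gene was searched, and that of Ctsk ends 76 bases from the gene start in the count table. Among 32851 RefSeq promoter windows of this length, 55.6% held the NFAT core and 23.3% the PU.1 motif. The MITF motif was in 12.3% and the AP-1 motif in 6.75%. A match to the NFAT core is thus found in most promoters, and the other motifs are less common. These shares count windows with any match, so they give no background for several matches in 1 window. Binding at the matches was not tested. Promoters of 6 of the 10 genes were found in the RefSeq table, and those of Calcr and Clcn7 each held 1 match to the NFAT core and no other.

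The receptors were present at lower levels. Oscar, the osteoclast-associated receptor that binds collagen and gives a costimulatory signal, had 75.2, 22.5, 6.01, 5.44 and 48.2 CPM in No MM 1 to 5 and 54.9, 32.9, 11.1, 14.1 and 26.5 CPM in MM 6 to 10. As for the enzymes, No MM 1 was highest, No MM 3 and No MM 4 were lowest and the groups overlapped. The log2 fold change was -0.17 (SE 0.71), with an adjusted p of 0.926 (edgeR). Calcr encodes the calcitonin receptor, which marks late osteoclasts. It was the least abundant of the genes, with 34 to 433 counts per library, and had 10.7, 3.97, 2.26, 1.23 and 2.94 CPM in No MM 1 to 5. In MM 6 to 10 its level was 11.2, 5.57, 2.06, 1.27 and 1.69 CPM. The lowest library was again No MM 4, but MM 8, MM 9 and MM 10 were below No MM 3, unlike in Oscar. The log2 fold change of Calcr was 0.04 (SE 0.71), with an adjusted p of 0.984 (edgeR).

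The fusion genes had the widest range of all. Dcstamp, the dendritic cell-specific transmembrane protein required for fusion of osteoclast precursors, was at 86.7, 23.8, 4.01, 2.76 and 51.8 CPM in No MM 1 to 5 and at 49.1, 28.6, 8.44, 10.9 and 24.9 CPM in MM 6 to 10. Its highest library, No MM 1, was 31.4-fold above its lowest, No MM 4. Ocstamp, a related transmembrane protein with a role in the same process, was at 62.0, 22.7, 3.20, 2.54 and 25.1 CPM in No MM 1 to 5 and at 40.6, 20.5, 7.37, 6.26 and 14.9 CPM in MM 6 to 10, a 24.4-fold range between the same libraries. In both genes the MM libraries lay between the control extremes. The log2 fold change was -0.47 (SE 0.84) for Dcstamp and -0.37 (SE 0.81) for Ocstamp, with adjusted p of 0.819 and 0.859 (edgeR).

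The genes of acid secretion differed among themselves. Atp6v0d2 encodes the d2 subunit of the vacuolar proton pump (V-ATPase), which is enriched in osteoclasts. Its level was 243, 125, 30.6, 28.3 and 251 CPM in No MM 1 to 5 and 266, 140.3, 69.0, 94.5 and 173 CPM in MM 6 to 10, with No MM 3 and No MM 4 lowest and MM 6 highest. Its fold change was 0.13 on the log2 scale (SE 0.62), with an adjusted p of 0.937 (edgeR). Tcirg1 encodes the a3 subunit of the same pump, and its loss causes osteopetrosis. Its level was 212, 125, 115, 130.1 and 244 CPM in No MM 1 to 5 and 284, 205, 268, 189 and 205 CPM in MM 6 to 10. Here No MM 2 was as low as No MM 3 and No MM 4, and the 5 MM libraries overlapped with No MM 1 and No MM 5 alone. Tcirg1 had the highest log2 fold change of the 10 genes, 0.48 (SE 0.25), which did not pass the test (adjusted p = 0.403, edgeR). Clcn7 encodes the chloride/proton exchanger that accompanies the pump. It was at 113, 66.1, 39.7, 41.8 and 104 CPM in No MM 1 to 5 and at 109, 80.1, 76.7, 62.8 and 77.6 CPM in MM 6 to 10, with No MM 3 and No MM 4 below every other library. Its log2 fold change was 0.16 (SE 0.31), with an adjusted p of 0.834 (edgeR).

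Nfatc1 encodes the transcription factor at the head of the osteoclast program, which lymphocytes and other cells also use. Its level was 140.3, 93.5, 34.4, 32.1 and 118 CPM in No MM 1 to 5 and 141, 104, 79.4, 73.3 and 83.3 CPM in MM 6 to 10. No MM 3 and No MM 4 were below all other libraries, which ranged only from 73.3 to 141 CPM. The log2 fold change was 0.20 (SE 0.41), with an adjusted p of 0.843 (edgeR).

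**Figure D1:**
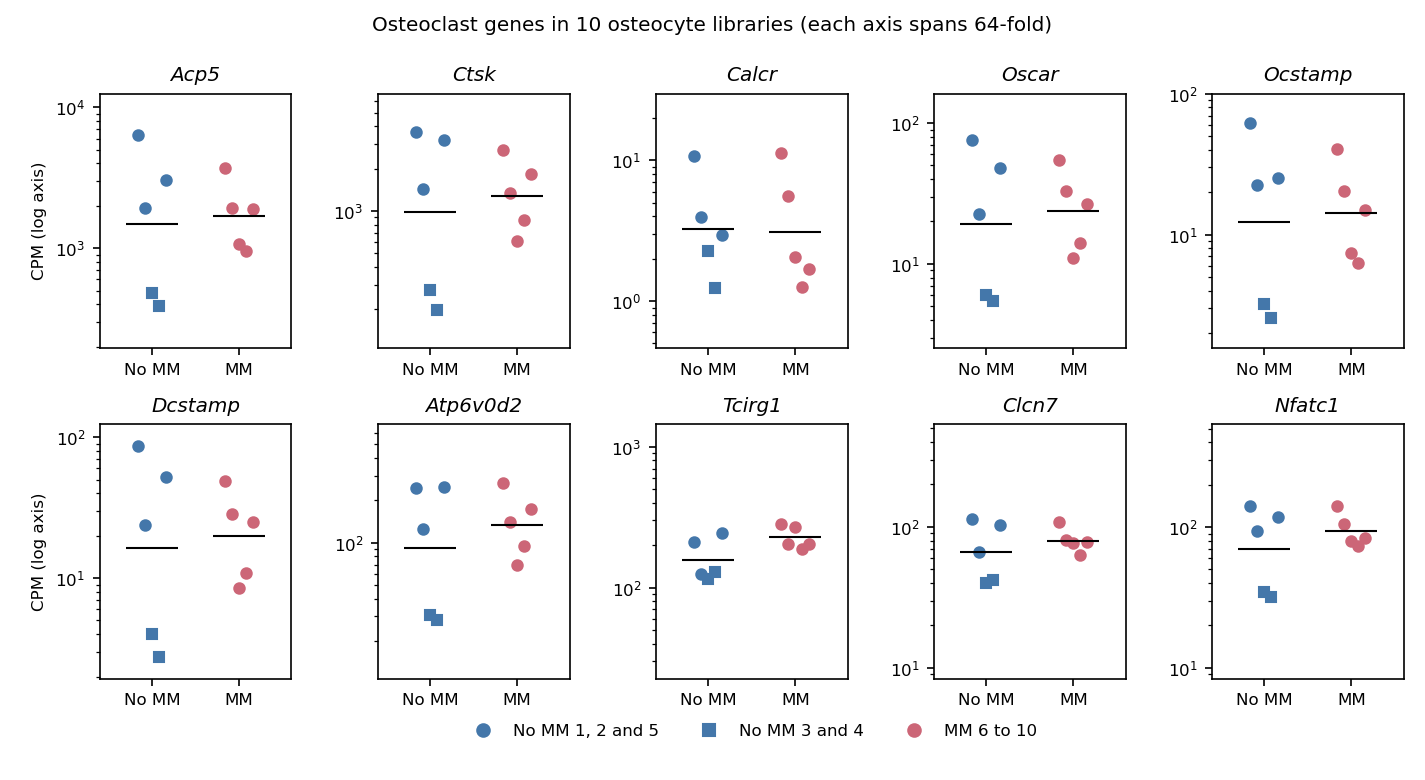
Level of each osteoclast gene in CPM (log axis, 64-fold in every panel) in the 5 No MM and 5 MM libraries; points are libraries, squares are No MM 3 and No MM 4, and lines are geometric means. The groups overlap in all 10 panels, and the squares are the lowest 2 points in all but Calcr and Tcirg1.

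The comparison asked whether the osteoclast genes differed in osteocyte preparations of myeloma-bearing mice. None of the 10 genes was called at an adjusted p under 0.05, in a fit that called 0% of all 16186 tested genes, with adjusted p between 0.403 and 0.984 (edgeR). At an unadjusted p under 0.05, again 0 of the 10 genes passed, against a background of 3.81% of all genes higher and 10.3% lower in MM. DESeq2 called 0 of the 10 genes as well. Scaling by library totals in place of TMM turned the background split from 617 genes higher and 1664 lower into 2128 higher and 449 lower, still with 0 of the 10 genes called at an adjusted p under 0.05 (edgeR). The groups did not overlap in 0 of the 10 genes and in 1.41% of all genes. The fitted log2 fold change was negative in 5 genes and positive in 5, with a median of -0.07 beside -0.03 for all tested genes. Its sign depended on the scale of averaging. The mean CPM was lower in MM in 5 genes, whereas the mean of log2 CPM was higher in MM in 9 genes. For Dcstamp, the controls averaged 4.05 ± 2.20 and the MM mice 4.33 ± 1.04 in log2 CPM (SD, n = 5 each), with an exact permutation p of 0.802, although the mean CPM was lower in MM. Two-sided exact permutation tests of mean log2 CPM over all assignments of the mice gave p from 0.0873 (Tcirg1) to 0.937 (Calcr), in a design whose smallest possible p is 0.00794.

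Leaving out No MM 3 and No MM 4 moved the values in 1 direction. For the 8 genes in which these controls were the 2 lowest libraries, leaving them out raises the control mean. A lower fold change in those genes was therefore fixed by the choice and is not a separate result. In the fit of the other 8 libraries, 9 of the 10 genes had a negative log2 fold change and Tcirg1 a positive one of 0.23 (SE 0.25). Over all tested genes, 8041 of 16600 had a positive value in this fit. The median was -0.66, beside -0.02 over all tested genes. Dcstamp had the lowest value, -1.17 (SE 0.58), followed by Ocstamp at -1.05 (SE 0.61), and no gene passed an unadjusted p of 0.05, the lowest being 0.0757 for Dcstamp. In this fit 2.51% of 16600 genes were higher and 3.37% lower at that threshold. Adjusted p lay between 0.643 and 0.828 (edgeR), and exact permutation p over 56 assignments between 0.143 and 0.446. Leaving out No MM 1 alone had the opposite effect, with 0 of 10 genes negative, while leaving out MM 6 gave 7 negative genes. Single libraries of either group thus changed the sign in some genes, such as Atp6v0d2, at -0.19 without MM 6. Tcirg1 stayed positive with any mouse left out.

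**Figure D2:**
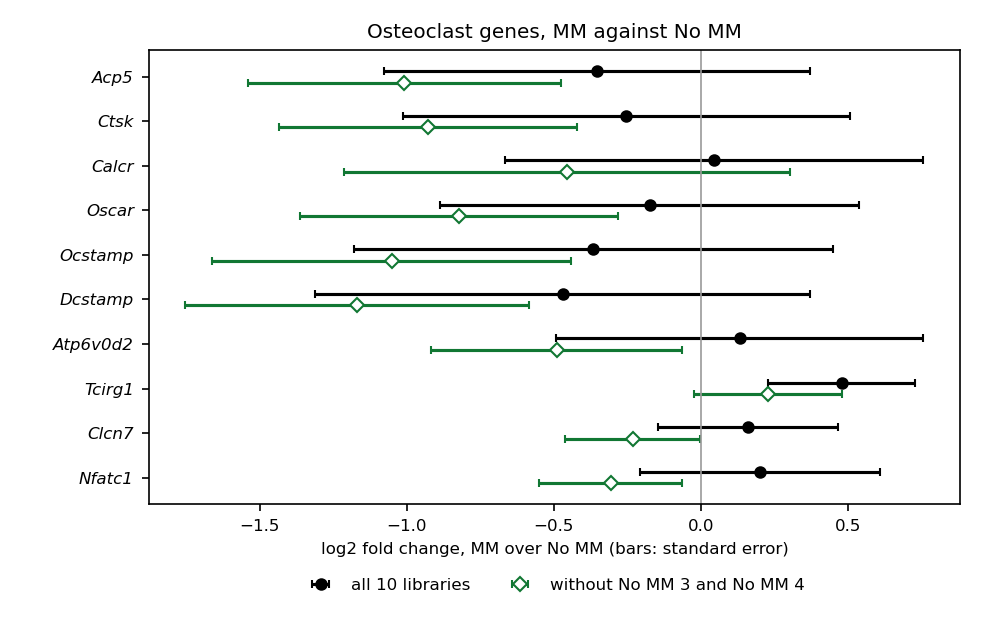
Log2 fold change of MM over No MM for each osteoclast gene, with its standard error, from edgeR on all 10 libraries (filled circles) and without No MM 3 and No MM 4 (open diamonds). Open diamonds lie to the left of the circles in all 10 genes, and below 0 in all but Tcirg1.

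The spread among mice was wide. The highest library exceeded the lowest by 2.47-fold in Tcirg1, 2.84-fold in Clcn7 and 4.38-fold in Nfatc1. Calcr and Atp6v0d2 spanned 9.08-fold and 9.38-fold, Oscar 13.8-fold, Acp5 16.4-fold and Ctsk 18.2-fold. The median range over the 10 genes was 11.6-fold, beside 3.10-fold over the tested genes with a count in every library, and the median SD of log2 CPM was 1.23 beside 0.51. No MM 3 and No MM 4 were the 2 lowest libraries in 8 of the 10 genes, a pattern held by 20.7% of all tested genes. In Ctsk, MM 8 and MM 9 were the next lowest, so that low levels were found in both groups.

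**Figure D3:**
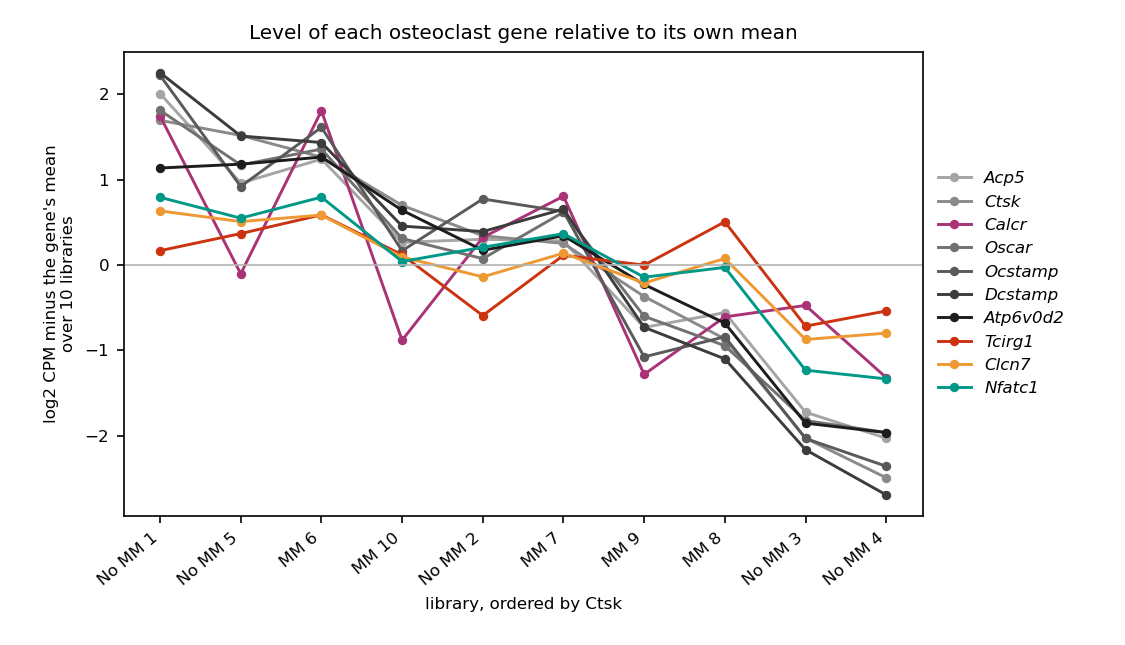
Log2 CPM of each osteoclast gene minus its own mean over the 10 libraries, with libraries ordered by Ctsk. The grey lines of Acp5, Ctsk, Oscar, Ocstamp, Dcstamp and Atp6v0d2 run together from No MM 1 to No MM 4, while Tcirg1, Clcn7 and Nfatc1 keep closer to 0 and Calcr crosses the others.

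Whether the genes varied together from mouse to mouse was asked by correlating log2 CPM of Ctsk with each of the other 9 genes. Added were 4 genes outside the 10, namely Csf1r, Adgre1, Dmp1 and Sost, for 13 relations in all. No osteoblast gene was among the 4 and no background over all genes was taken, so the values do not set osteoclast genes apart. The osteoblast marker Col1a1, for example, was at 16394, 9461, 1198, 693 and 15085 CPM in No MM 1 to 5. In MM 6 to 10 it was at 18661, 8023, 5758, 4973 and 9667 CPM, and its correlation with Ctsk was not tested. The libraries share a preparation protocol, and No MM 3 and No MM 4, the 2 farthest from the median of Ctsk, form a cluster of their own, so each value is also given over the remaining 8. Atp6v0d2 had the highest r with Ctsk, and Dcstamp the highest rho. For Atp6v0d2, r was 0.99 and rho 0.94 over 10 libraries (permutation p = 1e-05 for r, the smallest that 100000 permutations can give, and adjusted p = 6.5e-05). Without the 2 libraries r was 0.98 and rho 0.88 (adjusted exact permutation p = 0.00194 for r). Dcstamp had r of 0.99 and rho of 0.96 over 10 libraries and r of 0.97 and rho of 0.93 over 8. Over the 8 libraries, r was 0.96 for Oscar, 0.94 for Acp5, 0.89 for Ocstamp, 0.86 for Nfatc1 and 0.82 for Clcn7, and rho was 0.81 to 0.90. Together with Atp6v0d2 and Dcstamp, these 7 genes had adjusted exact permutation p of at most 0.0319 for r and 0.0404 for rho.

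Tcirg1 and Calcr had lower correlations with Ctsk. For Tcirg1, r with Ctsk was 0.64 and rho 0.56 over 10 libraries (permutation p = 0.0478, adjusted p = 0.0565 for r), and r was 0.15 over 8 (adjusted exact permutation p = 0.806). Over 10 libraries r of Tcirg1 passed the threshold after centring on group means (r = 0.70, adjusted permutation p = 0.0370) and with scaling by library totals (r = 0.74, adjusted permutation p = 0.0201). Its rho passed after centring (rho = 0.71, adjusted permutation p = 0.0327) but not with library totals (rho = 0.54, adjusted permutation p = 0.135). Centred values of the 8 libraries gave r of 0.49 (adjusted exact permutation p = 0.273). For Calcr, r was 0.68 and rho 0.67 over 10 libraries (permutation p = 0.0348 for r, adjusted permutation p = 0.0452 for r and 0.0521 for rho). Over 8 libraries its r was 0.65 (adjusted exact permutation p = 0.140), a similar size that no longer passed with fewer libraries. Csf1r, the M-CSF receptor of the whole macrophage lineage, had r of 0.87 and rho of 0.70 over 10 libraries and r of 0.54 over 8 (adjusted exact permutation p = 0.214). The size of the relation of Tcirg1 and Csf1r to Ctsk thus rested in part on No MM 3 and No MM 4. The macrophage marker Adgre1 had r of 0.48 and rho of 0.36, and the osteocyte gene Sost had r of 0.32 and rho of 0.19, over 10 libraries, with adjusted permutation p of 0.177 and 0.354 for r. For Dmp1, r was 0.83 and rho 0.77 over 10 libraries (permutation p = 0.00341, adjusted p = 0.00493 for r), and r was 0.63 over 8 (adjusted exact permutation p = 0.140).

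Ratios to Ctsk within a library, which do not depend on scaling, are given as a description. They set Nfatc1 and Clcn7, which correlated with Ctsk, apart from the other 5 genes that did. Per count of Ctsk, Oscar varied 1.87-fold over the 10 libraries, Dcstamp 1.90-fold, Acp5 2.03-fold, Atp6v0d2 2.12-fold and Ocstamp 2.37-fold, although each had ranged over 9-fold or more in CPM. Acp5 counts were 101% of Ctsk counts in No MM 5 and 204% in No MM 4. The ratio to Ctsk varied 4.37-fold for Nfatc1, 6.75-fold for Clcn7, 8.98-fold for Calcr and 11.2-fold for Tcirg1. Tcirg1 counts were 2.85% of Ctsk counts in No MM 1, 20.4% in No MM 3, 31.8% in No MM 4 and 21.2% in MM 8. High ratios of Tcirg1 were thus found in libraries of both groups with little Ctsk. Since Tcirg1 spanned 2.47-fold in CPM and Ctsk 18.2-fold, the ratio had to rise where Ctsk was low. The same holds for Clcn7 and Nfatc1, which spanned 2.84-fold and 4.38-fold, so these ratios are not a separate result.

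**Figure D4:**
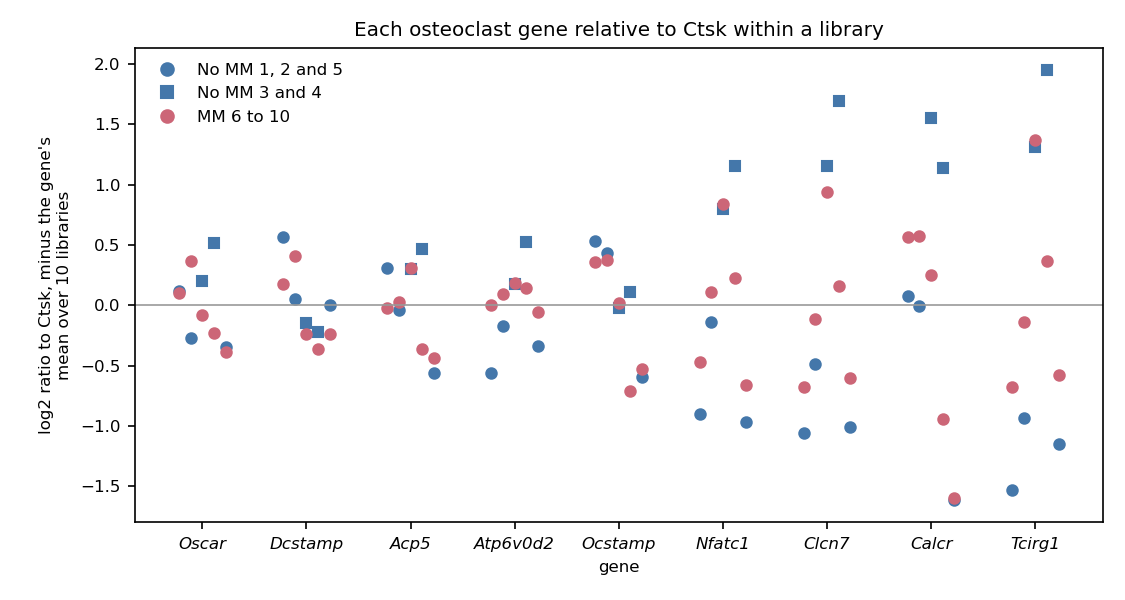
Log2 ratio of each osteoclast gene to Ctsk within a library, minus the gene's mean over the 10 libraries, with genes ordered by the spread of the ratio. The spread grows from 1.87-fold in Oscar to 11.2-fold in Tcirg1, with No MM 3, No MM 4 and MM 8 at the top for Tcirg1.

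Each of 5 osteoclast genes was set against a related gene in the same library, as a ratio of counts per kilobase. Tcirg1 over Atp6v0a1, which encodes the a1 subunit found in many cells, was 3.11, 2.30, 0.504, 0.491 and 4.58 in No MM 1 to 5 and 5.51, 3.57, 4.29, 2.34 and 2.63 in MM 6 to 10. Only in No MM 3 and No MM 4 did a1 exceed a3. Atp6v0a1 was at 313 and 363 CPM there, against 70.6 to 110 CPM in the other libraries. Tcirg1 itself was at 115 and 130 CPM there, beside 125 CPM in No MM 2. The log2 ratio averaged 0.60 ± 1.51 in the controls and 1.80 ± 0.51 in the MM mice (SD, n = 5 each), with an exact permutation p of 0.159 (adjusted p = 0.722 over the 5 ratios). Without No MM 3 and No MM 4 the difference in log2 ratio went from 1.20 to 0.12. Ctsk over Ctsb, a lysosomal cathepsin of most cells, was 5.65, 3.64, 0.616, 0.648 and 10.2 in No MM 1 to 5 and 7.93, 4.08, 1.76, 2.99 and 6.75 in MM 6 to 10. Cathepsin B transcripts therefore outnumbered those of cathepsin K, per length, in No MM 3 and No MM 4 alone.

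Atp6v0d2 over the widely used d1 subunit gene Atp6v0d1 ranged from 0.330 in No MM 3 to 1.95 in MM 6, and was also low in MM 8 at 0.384. Clcn7 over Ostm1, which encodes its partner subunit, ranged from 0.568 in No MM 3 to 2.22 in No MM 1. Ocstamp over Dcstamp had the narrowest range, from 0.264 in No MM 5 to 0.519 in No MM 2, with Dcstamp above Ocstamp in all 10 libraries. The adjusted exact permutation p was 0.722 for each of the 5 ratios, so none passed the threshold. Without No MM 3 and No MM 4, the difference in log2 ratio was -0.54 for Ctsk over Ctsb and -0.17 for Atp6v0d2 over Atp6v0d1, both positive over all 10 libraries at 0.76 and 0.46.

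**Figure D5:**
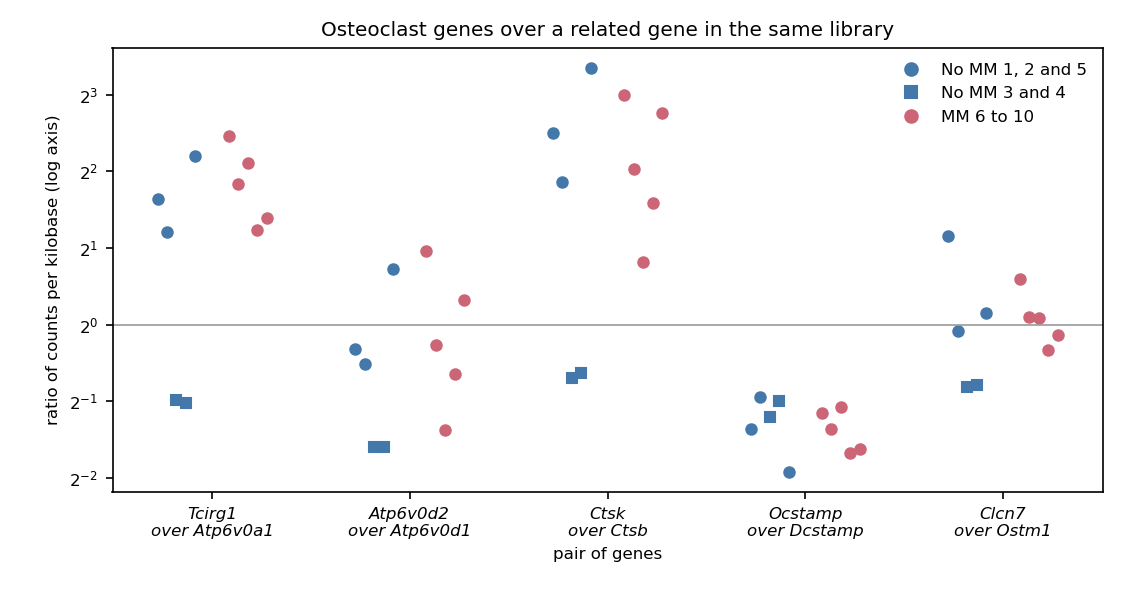
Ratio of counts per kilobase of each osteoclast gene to a related gene in the same library (log axis), with No MM on the left and MM on the right of each pair. No MM 3 and No MM 4 lie lowest for the ratios of Tcirg1, Atp6v0d2, Ctsk and Clcn7 and within the other libraries for Ocstamp over Dcstamp.

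The other genes of osteoclast formation and function were taken from 7 lists by role, with 79 genes listed, 77 in the table and 74 tested. At an unadjusted p under 0.05, 1 gene was higher and 4 were lower in MM, counts below the shares of 3.81% and 10.3% over all genes, and 0 passed adjustment (edgeR), while DESeq2 gave 9 of the 74 genes at the unadjusted threshold, beside 865 higher and 1856 lower among all 16186 genes. None of the osteoclast signals passed the test. Tnfsf11, which encodes RANKL, averaged 9.17 ± 4.67 CPM in the controls and 8.94 ± 5.59 CPM in the MM mice (SD, n = 5 each), with a log2 fold change of -0.04 (SE 0.48). Its decoy receptor gene Tnfrsf11b had a log2 fold change of -0.18 (SE 0.49), and Csf1, which encodes M-CSF, one of 0.71 (SE 0.51), with adjusted p of at least 0.526 in the 4 genes of this list (edgeR). Tnfrsf11a, the receptor RANK, averaged 14.9 ± 8.77 CPM in the controls and 19.5 ± 8.81 CPM in the MM mice (SD, n = 5 each).

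The gene higher at the unadjusted threshold was Bcl6, a repressor of osteoclast genes, with a log2 fold change of 0.86 (SE 0.30, adjusted p = 0.315, edgeR). It was 0.53 (SE 0.25) without No MM 3 and No MM 4. Prdm1, Ctsw and Ctsz were among the 4 lower genes. Prdm1 encodes Blimp-1, which serves in osteoclasts and in plasma cells, and averaged 60.4 ± 62.4 CPM in the controls and 16.6 ± 3.98 CPM in the MM mice (SD, n = 5 each). Its log2 fold change of -1.86 became 0.07 without No MM 3 and No MM 4, and that of Ctsw, a cathepsin of cytotoxic lymphocytes, went from -1.96 to 0.21. For Ctsz the value went from -0.90 to -0.41.

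The attachment and resorption genes differed in their spread. Car2 ranged from 37.5 to 1526 CPM and Mmp9 from 204 to 3409 CPM over the libraries, while Ostm1 ranged from 54.8 to 100.3 CPM and Src from 23.8 to 67.9 CPM. Car2, the carbonic anhydrase that supplies protons, averaged 643 ± 598 CPM in the controls and 699 ± 265 CPM in the MM mice (SD, n = 5 each). Mmp9, a matrix metalloproteinase, averaged 1525 ± 1371 CPM in the controls and 1313 ± 517 CPM in the MM mice (SD, n = 5 each). In 7 of 10 genes of this list, and in 7 of 9 receptors and adaptors, No MM 3 and No MM 4 were the 2 lowest libraries. This was so in 9 of 20 tested V-ATPase subunits, 3 of 13 cathepsins and 0 of 7 chloride channels, beside 20.7% of all genes. Among the V-ATPase subunits, 16 of 20 had a negative log2 fold change, with a median of -0.17, and 0 passed an unadjusted p of 0.05. Over all tested genes, 7664 of 16186 had a positive value. Without No MM 3 and No MM 4 the median was -0.47, and 4 subunits were lower at that threshold, beside 3.37% of all genes. They were Atp6v0c at -0.77 (SE 0.29), Atp6v1e1 at -0.61 (SE 0.25), Atp6v0e at -0.54 (SE 0.20) and Atp6v1h at -0.52 (SE 0.18), each with an adjusted p of 0.643 (edgeR). In the 9 subunits with No MM 3 and No MM 4 lowest, Atp6v1e1 and Atp6v0e among them, a lower fold change was fixed by the choice. It is not a separate result. No MM 1 was the highest library in each of the 4, as in Atp6v0c, at 354 CPM beside 184 CPM in No MM 5, the next highest.

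Markers of other cells varied among the libraries, some with the osteoclast genes and some not, and their part in the result was not tested. The summed level of 6 osteoblast markers was 948 to 1623 CPM in No MM 3 and No MM 4, 11603 to 19498 CPM in the other controls and 5926 to 23950 CPM in MM. The 6 osteocyte markers summed to 308 to 422 CPM in No MM 3 and No MM 4 and to 382 to 2417 CPM in the other 8 libraries, with MM 8 at 382. The sum of the 6 plasma cell markers was highest in No MM 3 and No MM 4, at 9122 to 9170 CPM, against 563 to 1081 CPM in the other controls and 678 to 1249 CPM in MM, although Mzb1 alone was higher in No MM 1, at 87.6 CPM, than in No MM 3, at 62.9 CPM. The 9 macrophage markers summed to 718 to 885 CPM in No MM 3 and No MM 4, 950 to 2336 CPM in the other controls and 845 to 2861 CPM in MM, with MM 8 highest. The 8 neutrophil markers summed to 6873 to 8075 CPM in No MM 3 and No MM 4, 24383 to 31880 CPM in the other controls and 9840 to 29626 CPM in MM. The 4 monocyte markers summed to 628 to 1584 CPM over the 10 libraries, the 5 dendritic cell markers to 20.1 to 77.3 CPM, the 5 B cell markers to 172 to 393 CPM and the 5 T and NK cell markers to 36.4 to 131 CPM. The 4 erythroid markers summed to 119 to 6841 CPM, the 4 skeletal muscle markers to 391 to 4157 CPM, the 3 endothelial markers to 186 to 375 CPM and the 3 adipocyte markers to 66.6 to 427 CPM. None of the markers in any of these lists was at 0 in all libraries.

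The genes whose pattern was most like that of the 10 osteoclast genes were found by Spearman's rho with their mean log2 CPM over the 10 libraries, among 16176 other tested genes. At the highest rho, 0.99, 11 genes were tied, and the 5 with the highest r were Tsku, Tm4sf19, Angpt4, Slc37a2 and Fam102a. Tsku, a secreted proteoglycan gene, had r of 0.99 and an 11.4-fold range, Tm4sf19, a tetraspan membrane protein gene, r of 0.99 and a 17.0-fold range, and Angpt4, an angiopoietin gene, r of 0.99 and a 32.5-fold range. Slc37a2, a sugar phosphate transporter gene, ranged 11.3-fold and Fam102a 5.02-fold, both with r of 0.98. These values are a description of 10 libraries that share a preparation, drawn from a search over all genes. Which cells expressed the genes was not tested, so the pattern cannot be called particular to osteoclasts. The osteoblast marker Col1a1 shared part of it, being lowest in No MM 3 and No MM 4. It was highest in MM 6, whereas the mean log2 CPM of the 10 genes was highest in No MM 1.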

How the data were processed

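RNA-seq was analyzed for osteocytes of 5 No MM and 5 MM mice, 1 library each, grouped by the labels. Total RNA was prepared with a stranded kit, and the submitters' processing notes name FastQC 0.11.5 and STAR. The genome build, annotation and counting tool were not given in the sources used here, and the table's coordinates were matched to GENCODE M21. The authors deposited counts per gene as whole numbers, and these were analyzed. The deposited table also holds a signal (counts divided by a size factor), FPKM, and the authors' own log2 fold changes and p-values, which were not used.

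After filterByExpr and TMM scaling, the quasi-likelihood test of edgeR 4.0.16 (glmQLFit, glmQLFTest) was run in R 4.3.3, without covariates, for all genes of the table. An adjusted p under 0.05 was a call. The log2 CPM used a prior count of 2, ratios a pseudocount of 0.5 counts, and correlations 100000 permutations, or all orders for 8 libraries. The fit was tested on simulated data. Alternatives were DESeq2 1.42.0, RLE, upper quartile and total scaling, other filters, immunoglobulin genes left out, No MM 3 and No MM 4 left out, and each mouse left out. DESeq2 without No MM 3 and No MM 4, ratios to Ctsk, and group-centred correlations without those libraries were chosen after seeing the data.

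The 10 genes, the lists and the markers were chosen with earlier results of these data known. The named genes were the 10 genes, the genes of the lists and the 5 genes most like the mean of the 10. Depth of 31099174 to 39466332 counts per library gave every one of the 10 genes at least 34 counts, and the 3-count floor covers counting error only. Adgre1, Jchain and Clcn4 were matched by gene identifier, and Atp6v1g3 was not matched. The values of 1 gene of the lists are not reported here.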

Additional observations from a re-analysis of the deposited data

Results flagged for a closer look

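1 value stood far from its group. Calcr was at 10.7 CPM in No MM 1, while the other 4 No MM libraries lay between 1.23 and 3.97 CPM, so that its distance from the next library made up 0.712 of the range in controls. The level of MM 6, at 11.2 CPM, was similar. Chance flags about 1 in 20 groups, or 1.5 of the 30 groups examined, so 1 such value is no more than chance gives.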

How the results depend on the processing

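None of the 10 osteoclast genes was called under any of the 19 alternatives, DESeq2 included, which called 34 genes higher and 155 lower among all genes. Directions were less stable. Without No MM 3 and No MM 4, 9 genes had a negative log2 fold change instead of 5, and the value reversed to -0.49 for Atp6v0d2, -0.46 for Calcr, -0.23 for Clcn7 and -0.31 for Nfatc1 (edgeR), and to -0.48, -0.44, -0.22 and -0.29 with DESeq2, which also gave 9. In the same 8 libraries the difference in log2 ratio reversed to -0.17 for Atp6v0d2 over Atp6v0d1, -0.54 for Ctsk over Ctsb, 0.034 for Ocstamp over Dcstamp and -0.35 for Clcn7 over Ostm1. Scaling by library totals moved the median log2 fold change of all genes from -0.03 to 0.30 and Oscar to 0.081. Relative to that median the 10 genes lay between -0.52 (Dcstamp) and 0.47 (Tcirg1), against -0.44 and 0.50 with TMM.

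With each mouse left out in turn, the number of negative genes ranged from 0 (without No MM 1) to 8 (without No MM 3 or No MM 4). The log2 fold change ranged from -0.75 to 0.38 for Acp5, -0.59 to 0.20 for Ctsk, -0.68 to 0.74 for Calcr, -0.58 to 0.44 for Oscar, -0.92 to 0.42 for Ocstamp, -0.89 to 0.24 for Dcstamp, -0.19 to 0.47 for Atp6v0d2 and -0.0089 to 0.47 for Nfatc1. Of the 8 highest values, those of 7 genes came without No MM 1 and that of Atp6v0d2 without No MM 5. The lowest values of Acp5, Ctsk, Calcr, Oscar, Ocstamp, Dcstamp and Atp6v0d2 came without MM 6, and that of Nfatc1 without No MM 4. Tcirg1 stayed positive under all 19 alternatives, and the difference for Clcn7 over Ostm1 ranged from -0.047 to 0.44. At an unadjusted p under 0.05, DESeq2 gave 9 of the other osteoclast genes where edgeR gave 5, beside 865 genes higher and 1856 lower in DESeq2 and 617 and 1664 in edgeR over all genes. The cause of these shifts was not tested beyond the samples left out.

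No paired analysis was possible because mice of MM and No MM carry different numbers. Depth did not limit the 10 genes, except Calcr, whose lowest library held 34 counts.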
